A study of Mus musculus with 4 samples.

Results

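Livers of 3 mouse lines that carry a mutant selenocysteine tRNA transgene (A34, G37L and G37H) were set against liver that lacks the gene for this tRNA, Trsp (DTrsp). All 4 of the series' 4 comparisons with wild type entered, and each of 9285 genes has 1 value per comparison. The A34 transgene, present in 2 copies, has a T-to-A change at position 34 of the tRNA. The G37 transgene has an A-to-G change at position 37, and G37L livers hold 2 copies of it and G37H livers 16. DTrsp mice lack Trsp in the liver, and no label names the Cre driver of that deletion or says whether the transgenic livers also lack their own Trsp. The labels also state, for all 4, a harvest after several passages, a term they do not explain. All animals were males of B6/FVB background, 7 to 8 weeks old, fed a selenium-sufficient diet, and each mutant was compared with wild-type littermates on 2-colour arrays. Each value is an average made by the authors, over 3 animals in G37H and 4 in each other group, so no spread between animals, test or p-value can be given. The number of arrays limits the precision, and differences below are descriptions of averaged values. Trsp itself had no named probe, so the deletion was not checked in these values.

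The selenocysteine tRNA reads UGA as selenocysteine, and without it no selenoprotein can be made. Position 34 is the wobble base of its anticodon, which carries a methyl group in one form of the tRNA, and position 37 next to the anticodon carries an isopentenyl group. These modifications are known to matter most for the stress-related selenoproteins, such as Gpx1 and Selenow, and less for housekeeping ones such as the thioredoxin reductase Txnrd1 and Gpx4. Liver cells respond to oxidative or electrophilic stress through the transcription factor NRF2, which binds the antioxidant response element and raises enzymes of glutathione synthesis, conjugation and quinone reduction.

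Values are log2 ratios of mutant over wild type, with each column centred on its median over genes. The direction of the ratio is likely, not stated. It rests on the dye labels, Cy3 for wild type and Cy5 for the mutant, and if the ratio were turned, all signs below would be opposite. The base of the logarithm, not stated either, is read as 2. The difference described for a gene is the mean of the 3 lines minus DTrsp, and a gene is counted where it is at least 1 (2-fold) from 0. All 3 line differences share the DTrsp column, so a gene whose DTrsp value is far from wild type lies on the same side in all 3 by that fact alone. The lines' own values against wild type are therefore given beside them.

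The mean of the 3 lines was at least 2-fold above DTrsp for 470 of 9285 genes (5.06%) and at least 2-fold below it for 225 (2.42%). Each of the 3 lines was past 2-fold for 165 genes (1.78%) in the higher and 117 (1.26%) in the lower direction. Of the 470 higher genes, 456 lay on that side in all 3 lines, and of the 225 lower genes, 222 did, which the choice of genes by their mean and the shared DTrsp column largely fix. Singly, A34 was past 2-fold above DTrsp in 5.84% of genes and below it in 3.05%, G37L in 6.88% and 4.84%, and G37H in 7.3% and 3.96%. Above wild type by 2-fold lay 1.85% of genes in DTrsp, against 1.14% for A34, 3.24% for G37L and 3.68% for G37H. Below it lay 2.79% in DTrsp, against 0.614% for A34, 2.72% for G37L and 1.96% for G37H. DTrsp was the value far from wild type in many of these genes: it was at least 2-fold below wild type in 169 of the 470 and at least 2-fold above it in 120 of the 225. The mean of the lines alone was past 2-fold in 58 and 10, and neither side was in 243 and 95. The balance of directions depends on the centring. Of all calls, 67.6% were higher, against 38.3% for the values as deposited, where the median difference over all genes was -0.22, and 79.6% after centring on 189 abundant transcripts, where it was 0.12. Between these scalings many list medians near 0 change sign, among them those of housekeeping and other selenoproteins, selenocysteine factors, metallothioneins, P450 enzymes, cholesterol synthesis and chaperones of the endoplasmic reticulum.

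Probes of the same gene gave the only error that the table holds. Among 1791 genes with 2 probes, the difference of the lines from DTrsp varied between the probes by a median of 0.47, and in 5% of them by over 1.52. The reference gene Hprt had 54 probes with a mean difference of -0.65, an SD over probes of 0.37 and 3 probes at least 2-fold lower. Tbp had 42 probes with a mean of 0.75, an SD of 0.45 and 12 at least 2-fold higher. Of the genes counted, 88.9% of the higher and 85.3% of the lower had 1 probe, against 74.0% of all genes. Of those with more, every probe was past 2-fold in 18 of 52 higher and 16 of 33 lower genes. A difference near 2-fold in a gene with 1 probe is therefore within the range of differences between probes of 1 gene.

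**Figure D1:**
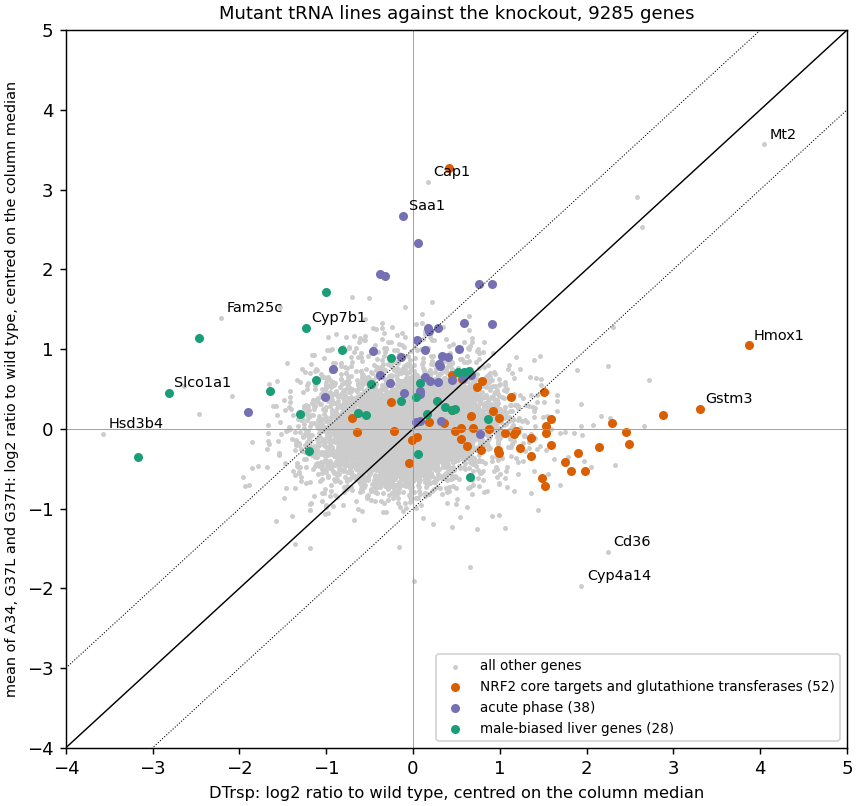
Each point is a gene, placed by its centred log2 ratio to wild type in DTrsp (x axis) and by the mean of A34, G37L and G37H (y axis), with equality as a solid line and 2-fold differences as dotted lines. NRF2 core targets and glutathione transferases lie mostly right of the solid line with lines near 0, acute phase genes mostly above it, and Mt2 near it with both values high.

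Several of the genes farthest below DTrsp are described first. Cyp4a14, a fatty acid hydroxylase, was at 1.94 in DTrsp and at -3.17, -1.52 and -1.21 in A34, G37L and G37H, a mean difference of -3.91. Cd36, the fatty acid transporter, was at 2.25 in DTrsp and at -1.30, -1.52 and -1.80 in the lines, a difference of -3.79. In both genes knockout and lines lay on opposite sides of wild type, each by more than 2-fold. The glutathione transferase Gstm3 was at 3.30 in DTrsp and between 0.13 and 0.37 in the lines, so there the lines lay close to wild type. The haem oxygenase Hmox1 was at 3.87 in DTrsp and at 0.55, 1.39 and 1.20 in the lines, so it was high in both G37 lines as well. Stmn1, a microtubule regulator of dividing cells, was at 2.66 in DTrsp and between -0.13 and 0.29 in the lines. The galectin Lgals1 was at 2.33 against -0.87, -0.02 and -0.48. Ugdh, which makes UDP-glucuronic acid, was at 2.46 in DTrsp and between -0.10 and 0.00 in the lines. Ddc, the aromatic amino acid decarboxylase, had 2 probes, whose differences were -2.52 and -2.24.

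**Figure D2:**
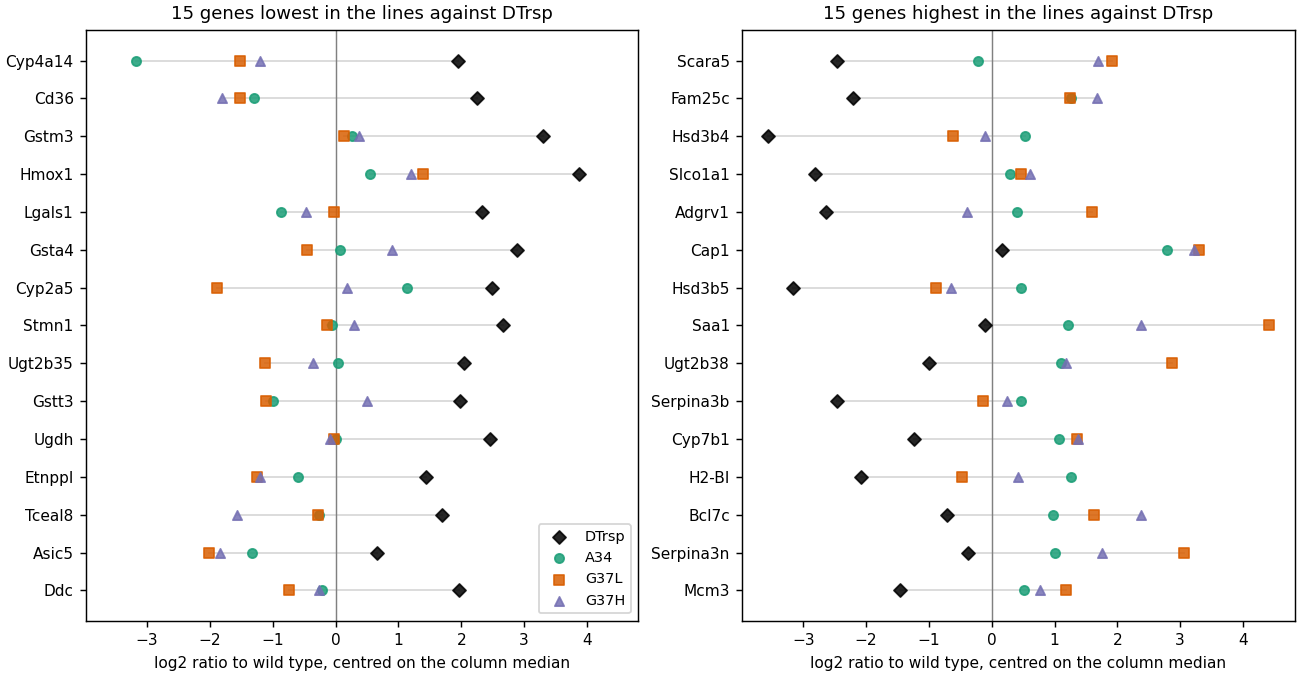
Centred log2 ratios to wild type in the 4 comparisons for the 15 genes lowest (left) and 15 highest (right) in the mean of the lines minus DTrsp, among genes past 2-fold in each line. In most genes of both panels DTrsp is farther from 0 than the mean of the lines, while in Cap1, Saa1, Serpina3n, Ugt2b38, Bcl7c, Cyp7b1, Asic5 and Cyp4a14 the mean of the lines is farther.

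NRF2 targets separated knockout from mutant lines most widely of the 42 gene lists examined. Of 30 measured members, 17 were at least 2-fold lower in the mean of the lines than in DTrsp and 0 at least 2-fold higher, against 2.42% and 5.06% of all genes, and 14 were lower in each line (1.26% of all genes). The list's median difference was -1.09, against -0.01 over all genes, and -0.88, -1.10 and -1.17 in A34, G37L and G37H taken singly. Against wild type, the list's median was 1.09 in DTrsp and 0.03, -0.15 and -0.10 in the lines. At least 2-fold above wild type were 16 members in DTrsp (1.85% of all genes), but 2 in A34 (1.14%) and 1 in either G37 line (3.24% and 3.68%). The catalytic subunit of glutathione synthesis, Gclc, was at 2.30 in DTrsp and at 0.49, -0.49 and 0.20 in the lines. Blvrb, a biliverdin reductase, was at 1.52 against -0.60, -0.97 and -0.58. Entpd5, a nucleotide hydrolase of the endoplasmic reticulum, was at 1.83 against -0.31, -0.81 and -0.47. The glutathione reductase Gsr was at 1.53 against -0.27, 0.39 and 0.00, and the malic enzyme Me1, which yields NADPH, at 1.49 against -1.04, -0.64 and -0.15. The regulators differed less. NRF2's own gene, Nfe2l2, and its inhibitor Keap1, both chosen after their values were seen, had differences of -0.38 and 0.19. The ferritin genes Fth1 and Ftl1, also chosen after their values were seen, were above wild type in all 4 comparisons and differed by -0.22 and -0.19.

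The promoters of the list were searched for the core of the antioxidant response element, TGACNNNGC on either strand, in RefSeq's windows around each start site (GRCm38.p6). A match was present in 9 of 31 promoters of 25 NRF2 targets (29.0%), in 4 of 29 promoters of 20 glutathione transferases (13.8%) and in 4071 of all 32851 mouse promoters (12.4%). The promoters shown first are those of Ugdh and Me1, which hold matches (Me1 in 1 of its 2 promoters, the one shown), and of Gstm3, which has none in this window. They are given 5′ to 3′ along the gene, with the matches in capitals.
Ugdh (chr5:65435793-65436092, minus strand): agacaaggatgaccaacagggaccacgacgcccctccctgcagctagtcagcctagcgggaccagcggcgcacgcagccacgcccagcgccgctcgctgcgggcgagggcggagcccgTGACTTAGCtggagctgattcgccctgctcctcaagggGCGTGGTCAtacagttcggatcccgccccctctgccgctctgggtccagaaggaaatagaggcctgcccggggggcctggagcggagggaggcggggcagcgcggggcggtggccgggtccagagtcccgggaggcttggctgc
Me1 (chr9:86695865-86696164, minus strand): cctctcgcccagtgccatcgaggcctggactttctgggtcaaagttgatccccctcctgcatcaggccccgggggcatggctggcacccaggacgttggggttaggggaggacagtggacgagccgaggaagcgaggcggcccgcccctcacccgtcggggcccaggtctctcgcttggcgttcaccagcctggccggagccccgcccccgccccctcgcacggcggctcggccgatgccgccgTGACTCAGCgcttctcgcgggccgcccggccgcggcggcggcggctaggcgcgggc
Gstm3 (chr3:107969125-107969424, minus strand): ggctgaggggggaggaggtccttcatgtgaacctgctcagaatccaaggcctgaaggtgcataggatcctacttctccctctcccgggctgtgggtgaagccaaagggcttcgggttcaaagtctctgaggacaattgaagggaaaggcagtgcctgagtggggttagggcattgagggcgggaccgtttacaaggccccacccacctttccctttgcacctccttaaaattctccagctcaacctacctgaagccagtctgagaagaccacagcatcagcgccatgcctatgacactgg

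Glutathione transferases, which couple glutathione to electrophiles, were also mostly lower in the lines, with 17 of 22 below DTrsp in the mean and 5 above. Of the 22, 10 were at least 2-fold lower in the mean of the lines (45.5%, against 2.42% of all genes) and 1 was higher. Of the 10, 9 were lower in each line (1.26% of all genes). The median difference was -0.69, and the list's median against wild type was 0.81 in DTrsp and 0.11, -0.21 and 0.36 in A34, G37L and G37H. Gsta4 was at 2.88 in DTrsp and at 0.07, -0.46 and 0.90 in the lines, Gstm4 at 2.14 against -0.08, -0.42 and -0.16, and Gsta1 at 1.90 against -0.06, -1.20 and 0.36. The microsomal Mgst3 had 2 probes and was at 1.75 in DTrsp and at -0.33, -1.13 and 0.20 in the lines. Gstp3 went the other way, at 0.42 in DTrsp and at 1.05, 3.74 and 5.01 in A34, G37L and G37H, a difference of 2.85. In Gstp3 the lines, and not the knockout, were far from wild type. Members of each transferase class are similar in sequence, so their probes may cross-react.

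**Figure D3:**
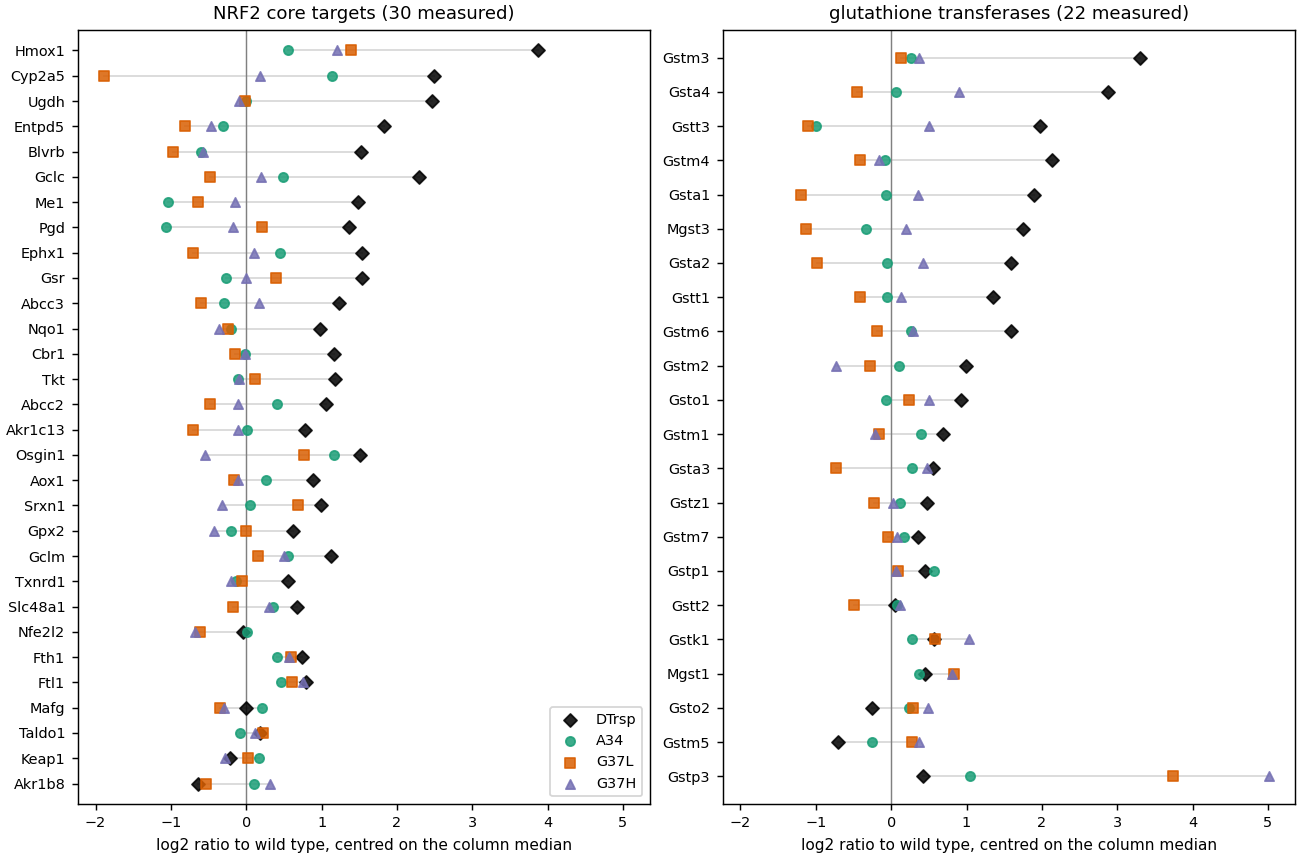
Centred log2 ratios to wild type of the 30 measured NRF2 core targets (left) and 22 glutathione transferases (right), ordered by the mean of the lines minus DTrsp. DTrsp lies right of all 3 lines in most rows, and Gstp3, at 0.42 in DTrsp and 5.01 in G37H, lies the other way.

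Other detoxifying enzymes separated in part. Of 23 glucuronidation and sulfation genes, 5 were at least 2-fold lower in the mean of the lines and 1 was higher, with a median difference of -0.31. It was -0.14 with G37L left out and -0.13 over probes averaging at least 2 arrays. The glucuronosyltransferase Ugt2b35 was at 2.05 in DTrsp and at 0.04, -1.13 and -0.35 in the lines, whereas Ugt2b38 was at -1.0 against 1.10, 2.87 and 1.19. The 2 genes encode enzymes of 1 similar family. Of 23 carboxylesterases and other oxidases, 6 were lower and 0 higher, with a median difference of -0.42. It was -0.04 for A34 alone, against -0.73 for G37L and -0.37 for G37H, and -0.09 with G37L left out. The alcohol dehydrogenase Adh1 was at 1.79 in DTrsp and at 0.25, -1.01 and -0.28 in the lines. The 28 cytochromes P450 of families 1 to 3 had a median difference of -0.06, with 3 lower and 2 higher. Of 96 genes on the NRF2, glutathione transferase, glucuronidation and oxidase lists joined, 37 were at least 2-fold lower and 2 higher. Over all genes, 2.42% were lower and 5.06% higher. The 37 include the 17 NRF2 targets and 10 glutathione transferases described above. The P450 list was not joined, but the P450 gene Cyp2a5 is on the NRF2 list. Thioredoxin, peroxiredoxin and other antioxidant enzymes had 1 of 21 at least 2-fold lower, Gsr, 0 higher, 17 below DTrsp and a median difference of -0.31.

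The median of the growth hormone-dependent, male-biased genes lay above DTrsp in all 3 lines. Of 28 measured, 16 were above DTrsp in each line and 2 below it in each, and 6 were below it in the mean. At least 2-fold higher were 11, all 11 in each line (1.78% of all genes), and 1 was lower. The median difference was 0.61, and 0.76, 0.54 and 0.56 in A34, G37L and G37H. In DTrsp the list's median was -0.20 and 8 members were at least 2-fold below wild type (2.79% of all genes), while in the lines it was 0.43, 0.41 and 0.54. Slco1a1, an organic anion transporter, was at -2.82 in DTrsp and at 0.29, 0.47 and 0.60 in the lines, and its 2 probes differed by 2.96 and 3.59 in the same direction. The steroid dehydrogenase Hsd3b5 was at -3.17 in DTrsp and at 0.46, -0.88 and -0.64 in the lines. Hsd3b4, close to it in sequence, was at -3.57 against 0.54, -0.61 and -0.11. Cyp7b1, the oxysterol hydroxylase of bile acid synthesis, was at -1.24 in DTrsp and at 1.07, 1.36 and 1.38 in the lines, on the opposite side of wild type. The ferritin receptor Scara5 was at -2.47 in DTrsp and at -0.22, 1.92 and 1.70, so A34 stood near wild type and both G37 lines above it. Over probes whose decimals show an average of at least 2 arrays, the list's median difference was 0.16, with fewer members tested, and the cause was not tested. The probes left out there may also be averages of several arrays, since such an average can lack the extra decimals. Of 18 female-biased genes, 12 were below DTrsp in the mean of the lines and 6 above. At least 2-fold lower were 6 (33.3%, against 2.42% of all genes), and 1, Ntrk2, was at least 2-fold higher. The steroid hydroxylase Cyp17a1 was at 1.39 in DTrsp and at -0.87, -0.66 and -0.06 in the lines. The hepcidin gene Hamp2 was at 1.55 against 0.19, -0.80 and -1.09. The median difference of the female-biased list was -0.47, but 0.0039 over members with 2 or more probes, and -0.29 with A34 or with G37L left out. G37H, at -0.01, did not share it with A34 (-0.90) and G37L (-0.61).

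Acute phase genes, whose plasma proteins hepatocytes release in inflammation, were higher in the lines than in DTrsp, but not equally. Of 38 measured, 14 were at least 2-fold higher in the mean of the lines (36.8%, against 5.06% of all genes) and 0 lower. Of the 14, 5 were 2-fold higher in each line (1.78% of all genes). The median difference was 0.66, made up of 0.04 in A34, 1.33 in G37L and 0.47 in G37H, and it was 0.23 with G37L left out. At least 2-fold above wild type were 27 members in G37L, 11 in G37H, 3 in A34 and 0 in DTrsp, against 3.24%, 3.68%, 1.14% and 1.85% of all genes. The serum amyloid gene Saa1 was at -0.11 in DTrsp and at 1.22, 4.42 and 2.38 in the lines, Saa2 at 0.06 against 0.57, 4.90 and 1.51, and Saa3 at -0.32 against 0.81, 3.72 and 1.23. In each of the 3 genes the order was A34, G37H, G37L. The protease inhibitor gene Serpina3n was at -0.38 in DTrsp and at 1.01, 3.06 and 1.76. Negative acute phase and other plasma proteins had a median difference of -0.01, with 4 of 31 higher and 1 lower. Among them A2m, a protease-trapping protein, was at -1.53 in DTrsp and at -0.88, 2.13 and 3.35, so A34 was on the side of the knockout.

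Some complement and macrophage genes were higher in each of the 3 lines. Of 23 complement genes, 5 were at least 2-fold higher than DTrsp in the mean (21.7%, against 5.06% of all genes) and 0 lower, and 13 were above DTrsp in each line. Their median difference was 0.31. C9 of the membrane attack complex, with 2 probes, was at -0.82 in DTrsp and at 1.09, 0.89 and 1.0 in the lines, and C6, with 2 probes, at -1.65 against 0.76, 0.52 and 0.13. Of 35 Kupffer cell and macrophage markers, 7 were at least 2-fold higher (20.0%) and 1 lower, 20 were above DTrsp in each line and 8 below it in each. Their median difference was 0.39, or 0.25 with G37L left out, and their medians against wild type were -0.06 in DTrsp and 0.41, 0.51 and 0.48 in the lines. The complement component C1qc, made by macrophages, was at -0.31 in DTrsp and at 1.05, 0.97 and 1.02, the invariant chain Cd74 at -0.25 against 1.04, 0.85 and 1.36, and the cathepsin Ctss at -0.09 against 0.84, 1.48 and 1.12. Each of the 3 lay above the knockout in every line. Hpgd, the 1 marker at least 2-fold lower, had 2 probes and was at 0.97 in DTrsp and at -0.20, -0.66 and -0.18. C1qa, C1qb and C1qc are on both the complement and the macrophage list, so the counts of these lists overlap. In bulk liver, more cells of a type and more RNA per cell cannot be told apart. Hepatocyte markers, 37 of 40 with a probe, had medians of 0.41 in DTrsp and 0.26, 0.38 and 0.39 in the lines, and being ratios they do not show the level of a marker. Antigen presentation and interferon genes had a median difference of 0.30, with 4 of 47 higher (8.51%) and 0 lower. Among them the immunoproteasome subunit Psmb8, with 3 probes, was at -0.45 in DTrsp and at 1.08, 0.44 and 0.90. Stellate cell and matrix genes had a median difference of 0.33, with 2 of 30 higher, Acta2 by 1.13 and Dcn by 1.01, a share of 6.67% that is near that of all genes. The 2 probes of Acta2 differed by 0.45 and 1.80, and the 4 of Dcn by between 0.51 and 1.37. Macrophage, complement, interferon and matrix medians were 0.17, 0.10, 0.09 and 0.12 for the values as deposited. Neutrophil markers (6 measured) had 0 past 2-fold, with 4 above DTrsp and 2 below. Their median difference after centring was 0.43, but 0.01 with G37L left out. Lymphocyte markers (8) also had 0 past 2-fold, with 2 above DTrsp and 6 below. Their median difference was -0.44, made up of -0.05 for A34, -0.88 for G37L and -0.61 for G37H. The part of these cell markers in the acute phase values was not tested.

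**Figure D4:**
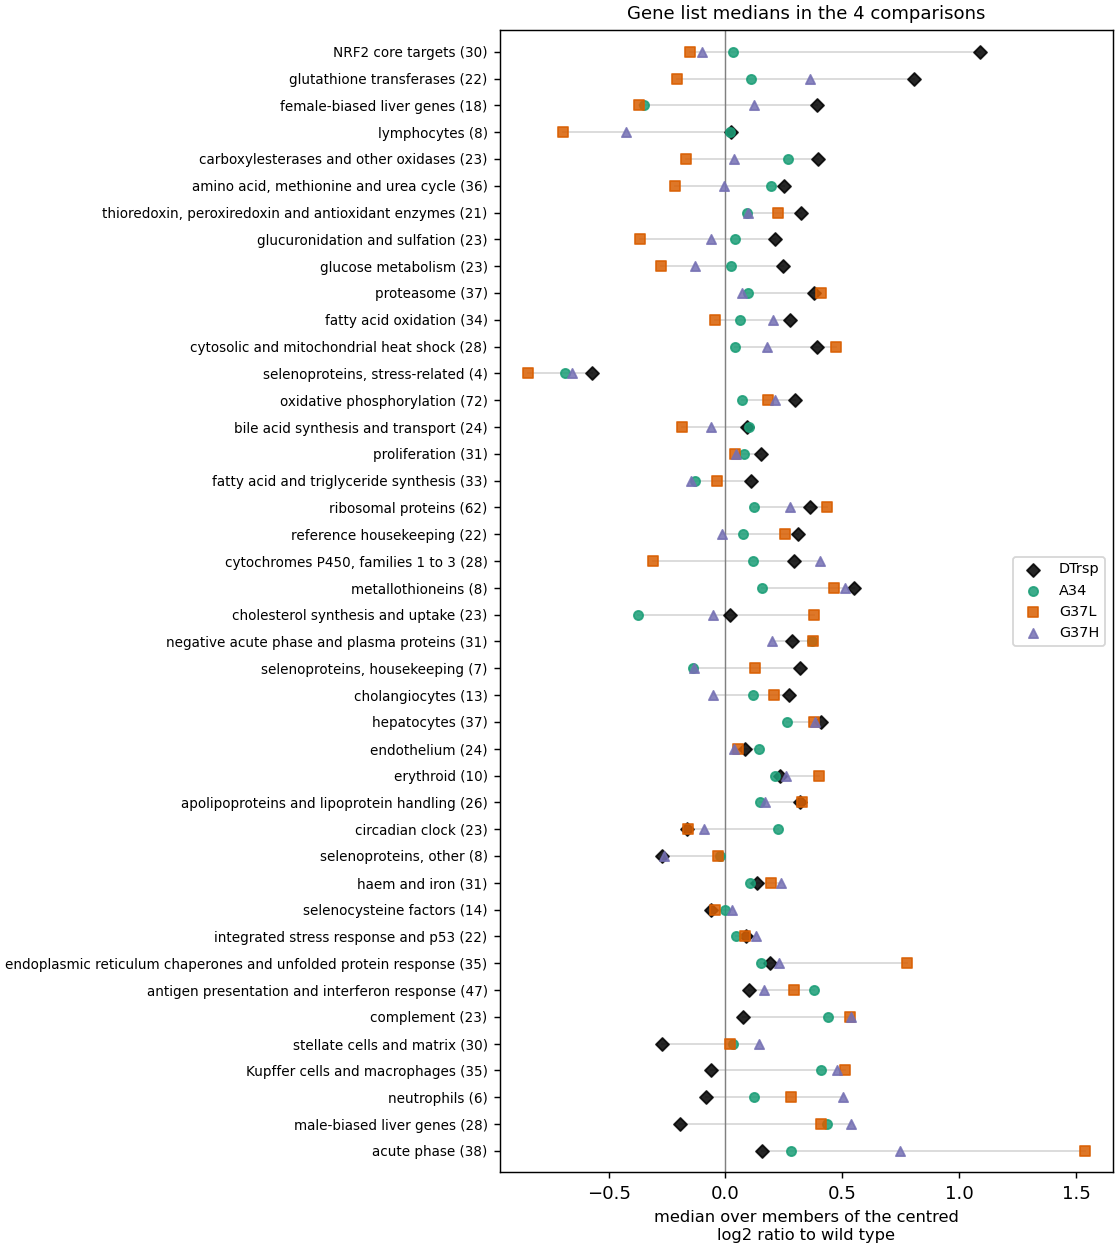
Median centred log2 ratio to wild type over the measured members (number in parentheses) of each of the 42 gene lists, in DTrsp, A34, G37L and G37H, ordered from the lowest difference of the lines from DTrsp at the top. DTrsp stands right of the lines for NRF2 core targets and glutathione transferases and left of them for male-biased genes and macrophage markers, while G37L alone stands apart for chaperones of the endoplasmic reticulum.

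Amino acid, methionine and urea cycle genes had a median difference of -0.35, with 30 of 36 below 0. Of the 36, 4 were at least 2-fold lower (11.1%, against 2.42% of all genes) and 0 higher. The median was -0.16 over probes averaging at least 2 arrays. The transsulfuration enzyme Cth, with 2 probes, was at 0.01 in DTrsp and at -1.14, -2.36 and -2.24 in the lines, so here the lines and not the knockout departed from wild type. The taurine-forming Csad was at 1.17 against -0.13, -0.85 and -1.36, and the ornithine aminotransferase Oat at 0.74 against -0.79, -1.23 and -1.77. Of 23 glucose metabolism genes, 4 were lower (17.4%, against 2.42% of all genes) and 1 higher, with a median difference of -0.30. It was -0.18 after centring on abundant transcripts and -0.02 over probes averaging at least 2 arrays. The gluconeogenic phosphatase gene G6pc was at 0.03 in DTrsp and at -1.09, -0.87 and -1.04. In bile acid synthesis, Cyp8b1, the sterol hydroxylase for cholic acid, was at 1.36 in DTrsp and at -0.81, -1.18 and -0.42. Of 34 fatty acid oxidation genes, Cyp4a14 included, 2 were at least 2-fold lower and 2 higher (5.88% each). Over all genes 2.42% were lower and 5.06% higher, and the list's median difference was -0.19. The lipoprotein lipase Lpl, of the lipoprotein list, was at 1.85 against 0.11, 0.38 and -0.64. Proliferation genes were split, with Stmn1, the securin Pttg1, the tubulin Tuba1c and Hmgb2 lower in the lines and the replication helicase subunit Mcm3 and cyclin Ccnd1 higher, by 2.28 and 1.05.

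Of 19 measured selenoprotein genes, 0 were past 2-fold in the mean difference of the lines from the knockout. Over all genes 5.06% were higher and 2.42% lower, so a count of 0 in so few genes is near that background. Median differences were -0.17 for 4 stress-related, -0.01 for 7 housekeeping and 0.09 for 8 other selenoproteins, and the last 2 change sign with the centring. The median of the stress-related genes lay below wild type in all 4 comparisons, at -0.57 in DTrsp and -0.69, -0.84 and -0.65 in the lines. Selenow, a small redox protein, was at -1.18 in DTrsp and at -1.54, -1.48 and -1.48 in the lines, and it was the only gene of 9285 at least 2-fold lower in all 4 (0.0108%). The glutathione peroxidase Gpx1 was at -0.71 against -0.91, -0.84 and -0.45, and the plasma peroxidase Gpx3 at -0.28 against -0.47, -0.85 and -0.73. Msrb1, a methionine sulfoxide reductase with 2 probes, was the member that A34 set apart, at 0.70 against -0.43 in DTrsp, -0.17 in G37L and -0.58 in G37H.

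Among housekeeping and other selenoproteins, the lines lay apart from each other in some and together in others. The mitochondrial thioredoxin reductase Txnrd2 was at -1.01 in DTrsp and at -0.14, -1.31 and -1.41 in A34, G37L and G37H, so the G37 lines lay with the knockout. The deiodinase Dio1, with 3 probes between 0.90 and 0.94, had the largest difference of the class, 0.91, and was at -0.83 in DTrsp and at 0.69, -0.04 and -0.39 in the lines. Sephs2, which makes the selenium donor, was at 0.93 in DTrsp and at 1.14, 0.13 and -0.14, with A34 near the knockout. Gpx2 and Txnrd1, which are also NRF2 targets, were at 0.62 and 0.55 in DTrsp and between -0.42 and -0.01 in the lines. Gpx4, the lipid peroxidase, was between 0.19 and 0.50 in all 4. The plasma selenium carrier Selenop was at 0.05 in DTrsp and at 0.31, 0.45 and 0.43 in the lines. Selenok was at -0.55 against 0.12, 0.72 and -0.10, Selenoo at -0.37 against 0.81, -0.64 and -0.35, and Selenos at -0.09 against -0.24, 0.61 and -0.51. Selenof, Dio2, Selenon, Selenov and Selenoi had mean differences between -0.28 and 0.14.

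Of 14 selenocysteine factors, 1 was at least 2-fold higher in the mean of the lines and 0 lower. That share of 7.14% is near the 5.06% of all genes. The list's median difference was 0.12, or -0.09 for the values as deposited. Sephs1, a relative of Sephs2, was at -0.17 in DTrsp and at 0.36, 1.25 and 1.20. Trit1, the enzyme that adds the isopentenyl group at position 37, was at -1.03 in DTrsp and at 0.00, -0.05 and -0.33 in the lines, a difference of 0.90 from 1 probe. The RNA-binding nucleolin, Ncl, was at -1.04 in G37L and between -0.43 and -0.22 elsewhere. The synthase Sepsecs, the kinase Pstk and the SECIS-binding protein Secisbp2 differed by 0.32, 0.15 and 0.05, and Trmt1l, Trnau1ap, Rpl30, Eif4a3, Sars, Elavl1, Secisbp2l and Scly by between -0.64 and 0.27.

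**Figure D5:**
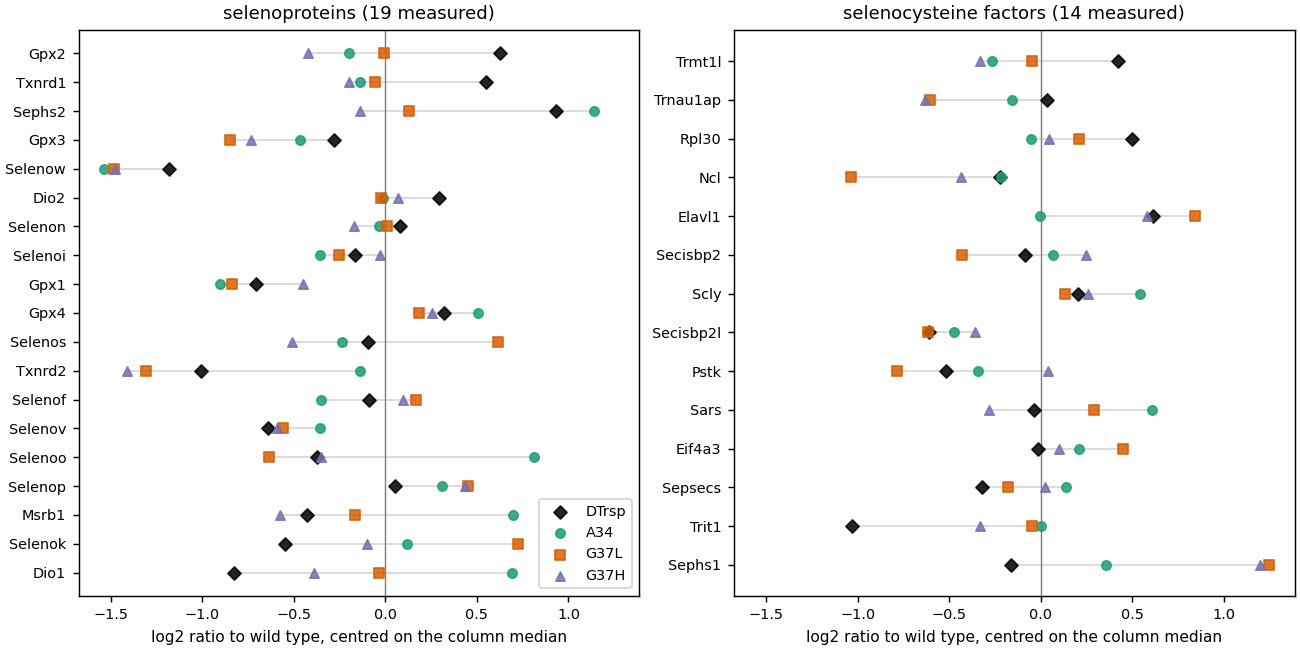
Centred log2 ratios to wild type of 19 selenoprotein genes (left) and 14 selenocysteine factors (right), ordered by the mean of the lines minus DTrsp. Selenow lies below -1 in all 4 comparisons, and in Txnrd2, Dio1 and Msrb1 A34 stands apart from both G37 lines.

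Genes were also placed by where knockout and lines lie against wild type. In DTrsp only, 114 genes (1.23%) lay at least 2-fold above wild type with no line 1.5-fold above it, and 158 (1.7%) lay likewise below. At least 2-fold higher in each line and not 1.5-fold higher in DTrsp were 11 genes (0.118%), and 4 (0.0431%) were so in the lower direction. These counts cannot be set against those for DTrsp only, since 3 columns had to pass 2-fold here and 1 column there. A34, 2-fold above wild type in 1.14% of genes and below it in 0.614%, also limits what all 3 lines can share. The 11 were Cap1, Gstp3, Saa1, Serpina3n, Ugt2b38, Cyp7b1, Fam25c, Sae1, Arf5, Btbd9 and Prkd1. Cap1, a regulator of actin, was at 0.17 in DTrsp and at 2.78, 3.29 and 3.22 in the lines, from 1 probe. The small GTPase gene Arf5 was at -0.09 against 1.57, 1.58 and 1.45, and the kinase gene Prkd1 at -0.89 against 1.08, 1.29 and 1.22. Sae1, a subunit of the SUMO-activating enzyme, had 3 probes, whose differences from DTrsp ran from 0.07 to 1.85. In 4 genes (0.0431%) DTrsp was at least 2-fold higher and the mean of the lines at least 2-fold lower than wild type, and in 4 (0.0431%) the reverse: Cyp4a14, Cd36, Etnppl and Slc25a17 in the first set, Scara5, Fam25c, Cyp7b1 and A2m in the second. The 4 genes lower in each line but not in DTrsp were Cyp4a14, Cd36, Cth and the ion channel gene Asic5, which was at 0.66 in DTrsp and at -1.33, -2.02 and -1.84.

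The metallothioneins Mt1, Mt2 and Mt4 were above wild type in the knockout and in every line, but A34 was at least 2-fold below DTrsp in each. Mt1 and Mt2, which bind zinc and copper, were the 2 genes at least 2-fold higher in all 4 comparisons (0.0215%). Mt2 was at 4.05 in DTrsp and at 1.60, 4.57 and 4.54 in the lines, and Mt1 at 2.58 against 1.41, 4.06 and 3.27. A34 was the lowest of the 4 in both genes. Mt4 was likewise lowest in A34, at 2.64 in DTrsp and at 0.95, 3.23 and 3.43. Probes may not tell these similar genes apart. The zinc transporters Slc30a1, Slc39a4 and Slc39a14 differed by between -0.50 and 0.46. The Mt2 promoter is shown because the gene is high with and without a tRNA transgene. Its capitals mark the core of the metal response element, TGCNCNC on either strand, a short motif found in 51.0% of all promoters and in all 6 of the metallothionein and zinc transporter promoters matched.
Mt2 (chr8:94172368-94172667, plus strand): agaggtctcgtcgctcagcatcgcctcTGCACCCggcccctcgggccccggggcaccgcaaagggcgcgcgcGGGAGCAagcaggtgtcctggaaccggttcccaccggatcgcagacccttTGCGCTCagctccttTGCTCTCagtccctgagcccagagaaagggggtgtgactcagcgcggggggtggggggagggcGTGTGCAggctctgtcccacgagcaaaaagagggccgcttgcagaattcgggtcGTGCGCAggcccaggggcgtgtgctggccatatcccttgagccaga

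The 3 lines did not agree for chaperones of the endoplasmic reticulum or for cholesterol synthesis. Of 35 chaperone and unfolded protein response genes, 16 were at least 2-fold above wild type in G37L (3.24% of all genes), against 0 in DTrsp and 1 each in A34 and G37H. The median difference from DTrsp was 0.63 in G37L, -0.10 in A34 and -0.08 in G37H, and 2 of 35 genes were past 2-fold in the mean, Creld2 and Sdf2l1. Creld2 was at -0.12 in DTrsp and at -0.35, 3.23 and 0.73 in the lines, Manf, a secreted stress protein, at -0.06 against -0.23, 2.47 and 0.50, and Sdf2l1 at 0.12 against 0.71, 2.01 and 0.67. Hspa5, the main chaperone, chosen after its values were seen, was at 0.19 in DTrsp and at 0.08, 1.89 and 0.11. The endoplasmic reticulum stress response element, searched on either strand, was present in 7 of 35 promoters of the list (20.0%) and in 39 of all 32851 promoters (0.119%). The promoters of Hspa5 and Creld2 are shown because they hold a match, in capitals, and the genes are high in G37L.
Hspa5 (chr2:34771840-34772139, plus strand): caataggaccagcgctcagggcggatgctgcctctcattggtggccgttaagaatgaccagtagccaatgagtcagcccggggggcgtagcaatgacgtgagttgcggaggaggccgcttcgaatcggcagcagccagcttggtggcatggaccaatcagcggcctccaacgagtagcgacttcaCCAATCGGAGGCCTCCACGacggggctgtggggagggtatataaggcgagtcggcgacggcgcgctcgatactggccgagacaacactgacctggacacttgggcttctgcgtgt
Creld2 (chr15:88819396-88819695, plus strand): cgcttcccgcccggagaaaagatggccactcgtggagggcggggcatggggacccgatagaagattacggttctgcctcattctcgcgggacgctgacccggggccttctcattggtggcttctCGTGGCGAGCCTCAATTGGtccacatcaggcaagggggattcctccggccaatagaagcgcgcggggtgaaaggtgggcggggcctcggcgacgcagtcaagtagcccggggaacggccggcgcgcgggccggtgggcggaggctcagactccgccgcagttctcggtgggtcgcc

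For 23 genes of cholesterol synthesis and uptake the median difference from DTrsp was -0.42 in A34, 0.42 in G37L and 0.02 in G37H, so their mean of -0.02 hides opposite lines. Hmgcs1, an early enzyme of the pathway, was at 0.77 in DTrsp and at -1.63, 0.47 and -0.49 in the lines, and Idi1 at 0.76 against -1.26, 1.25 and 0.22. Sqle, the squalene epoxidase, had 2 probes that lay on different sides of DTrsp, at -0.10 and 1.30, and its values were -0.50 in DTrsp and -1.46, 1.62 and 0.14 in the lines. Other genes with wide ranges over the lines were the thyroxine carrier Serpina7, at 1.54 in DTrsp and at -1.51, 2.0 and -1.27, and Cyp2a5, a P450 with 3 probes, at 2.49 against 1.14, -1.89 and 0.18. The carboxylesterase Ces1g was at 2.73 against 1.17, -1.04 and 1.71. The receptor kinase gene Alk, at 0.10 in DTrsp, was at 3.25 in G37L and at -0.06 and 0.80 in A34 and G37H, and Fndc9 at -0.49 against -1.13, 2.63 and 0.26. Among genes past 2-fold in the mean difference, 8 with the widest range over the lines were examined, and G37L was highest and A34 lowest in 6: Saa1, Saa2, Creld2, Fndc9, Serpina7 and Alk. In the other two, A2m and Gstp3, G37H was highest.

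Of the 695 genes past 2-fold in the mean, the agreement of the 3 lines, the share past 2-fold in each line, was 40.6% (95% Wilson interval 37 to 44.3%, which covers counting error only and takes genes as independent). The share was 35.1% of the higher and 52.0% of the lower genes. With 1 line left out, genes past 2-fold were chosen anew by the mean of the remaining lines. Each remaining line was past 2-fold in 61.6% of them without A34, 53.8% without G37L and 50.6% without G37H. The share was highest without A34, but these shares are over different sets of genes. The A34 column also had the narrowest spread, a median absolute deviation of 0.20, against 0.30 in DTrsp, 0.30 in G37L and 0.27 in G37H. With columns scaled to the spread of DTrsp, the agreement of the 3 lines stayed within the interval of 37 to 44.3%. The part of the spread in the shares with 1 line left out was not tested.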

How the data were processed

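The deposited table holds, per the labels, the authors' averages over animals of 2-colour array log ratios, taken as log2 values with mutant (Cy5) as numerator and wild type (Cy3) as denominator. Per the labels' protocols, 15 µg of total RNA extracted with Trizol was copied into cDNA and coupled to the dyes. The base of the logarithm, the normalization, dye swaps and any sharing of wild-type animals: not given in the sources used here. Of 15478 probes, 12984 were named by gene identifier through the mouse gene table of GRCm38.p6 and 63 by the annotation's symbol. The 110 with several genes and 2321 not listed were left out. Probes were averaged into 9285 genes, and columns were centred on their medians over genes (0.16 for DTrsp, 0.07 for A34, and -0.11 for both G37 lines). No filter on level was possible. The calculation was tested on simulated data in Python 3.11.15 with pandas 2.3.3.

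The members, the 42 lists and the alternatives were chosen with earlier results of these data known. Named genes are the 15 highest and 15 lowest past 2-fold in each line, the 8 with the widest range over lines, up to 6 highest and 6 lowest of each class against wild type, all selenoproteins and selenocysteine factors, and up to 6 members of other lists with the largest difference. Predicted transcripts and olfactory receptors may be skipped. Motifs were also searched for STAT (TTCNNNGAA, in 22.2% of acute phase and 8.70% of male-biased promoters against 8.30% of all) and PPAR (in 13 of 32851 promoters, none of a fatty acid oxidation gene). The spread between probes and the motif search were added after seeing the data.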

Additional observations from a re-analysis of the deposited data

Results flagged for a closer look

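In 4 genes DTrsp and each of the 3 lines were at least 2-fold from wild type on opposite sides, and this difference between knockout and lines was not tested. The difference of the lines from DTrsp was -3.91 for Cyp4a14, -3.79 for Cd36, 2.50 for Cyp7b1 and 3.60 for Fam25c, a gene at -2.21 in DTrsp and at 1.25, 1.25 and 1.68 in A34, G37L and G37H. Each of the 4 genes had 1 probe.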

How the results depend on the processing

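Counts of genes 2-fold higher and lower in the mean of the lines, then higher and lower in each line (470, 225, 165 and 117), changed with the settings as follows. They were 1284, 896, 563 and 373 at 1.5-fold, and 97, 63, 23 and 23 at 3-fold. Without centring they were 271, 436, 83 and 177, and 993, 611, 396 and 269 for values read as natural logs. They were 33, 37, 8 and 20 over genes with 2 or more probes, and 102, 59, 35 and 30 over probes averaging at least 2 arrays, both with fewer genes tested. That last setting may also leave out probes that average several arrays. Without A34, 356 and 179 genes were higher and lower in each remaining line. The agreement of the 3 lines (40.6%) was 28.7% at 3-fold and 36.8% without centring. It was 61.6%, 53.8% and 50.6% without A34, G37L and G37H, where fewer lines must agree and the mean is over fewer lines. The acute phase median (0.66) was 0.42 over genes with 2 or more probes, 0.44 with the median of the lines and 0.23 without G37L. The male-biased median (0.61) was 0.40 without centring and 0.16 over probes averaging at least 2 arrays. The glutathione transferase median (-0.69) was -1.06 over genes with 2 or more probes. The female-biased median reversed there, from -0.47 to 0.0039. Causes were not tested. The NRF2 median ran from -1.43 to -0.96 over all alternatives. No intensities were used, so signal over background is unknown. No paired analysis was possible because each group has 1 averaged column and no replicate values.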

Other observations

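Some genes outside the programmes above also set knockout and lines apart. The clock genes Per1 and Cry2 were at -1.19 and -1.04 in DTrsp, at 0.57 and 0.72 in A34, and between -0.70 and -0.11 in the G37 lines, while Rgs16, a clock output in liver, was at -0.17 in DTrsp and 0.23 in A34 but at -2.69 and -2.00 in the G37 lines. The list of 23 clock genes had a median difference of 0.09, or -0.12 for the values as deposited. The glucocorticoid-responsive Fkbp5 was at 0.36 in DTrsp and -0.45 in A34, against 1.19 in G37L and 2.03 in G37H. Cdkn1a, the cell cycle inhibitor, was at 2.29 in G37H and between -0.54 and 0.09 elsewhere. It had 2 probes, whose mean differences of the lines from DTrsp were 0.11 and 1.17. The haemoglobin genes Hbb-b1 and Hbb-b2 were highest in DTrsp, at 1.21 against 0.09, 0.38 and 0.30 in the lines and at 1.18 against 0.27, 0.42 and 0.23. The erythroid list they belong to did not share this. Of its 10 measured genes, 6 were above DTrsp in the mean and 4 below, with a median difference of 0.06. Its medians against wild type were 0.24 in DTrsp and 0.21, 0.40 and 0.26 in the lines. The galectin Lgals3 was at -1.56 in DTrsp and between 0.12 and 0.21 in all 3 lines, opposite to Lgals1. Ighm was at 2.60 in A34 and at -0.93 and -0.57 in G37L and G37H, with Igkc between -0.56 and -0.22 in the lines. The apolipoprotein gene Apoa4, with 2 probes, was at -2.53 in G37H and at -0.54 and -0.50 in A34 and G37L.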
